A study of Mus musculus with 6 samples.

Results

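Cells take up iron by more than one door, and 10 genes that build these doors were followed here in the postnatal kidney: the plasma iron carrier transferrin (Tf, listed in the tables as Trf), its receptors Tfrc and Tfr2, the metal carriers Slc39a8, Slc39a14, Slc11a1 and Slc11a2, the endosomal channel Mcoln1, and the ferrireductases Steap3 and Cybrd1. The members were picked by symbol, and all 10 of 10 were found among the 24422 genes of the count tables. Poly-A RNA of whole kidneys from C57BL/6 mice at postnatal day 13 was sequenced in 3 Control and 3 TfR1 knockout libraries, and all mice ate an iron sufficient diet of 220 ppm iron. Control mice carried the wild type genotype in the labels. The study calls them wild type littermates, and elsewhere it uses that name for littermates with the floxed receptor gene. Whether these controls were floxed is therefore not known. TfR1 knockout mice carried the floxed receptor gene with a Six2 driven Cre (Tfr1f/f;SixCre). This Cre is active in nephron progenitors, so tubules and podocytes descend from targeted cells while collecting ducts, vessels, stroma and blood cells do not. The study also described tubule cells that had escaped deletion, so a knockout kidney was a mixture of deleted and undeleted cells. A figure legend of the study gives 3 mice per model for the RNA sequencing, which matches the 3 libraries of each group. The labels themselves do not tie each library to 1 animal.

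As background, iron in plasma travels bound to transferrin. The complex binds transferrin receptor 1, the product of Tfrc, and is carried into endosomes, where acid frees the ferric iron, Steap3 reduces it, and Slc11a2 (DMT1), and in some cells Mcoln1 or Slc39a carriers, move it to the cytosol. Iron that is not bound to transferrin can enter at the cell surface through Slc39a8 (ZIP8), Slc39a14 (ZIP14) or Slc11a2, with help from reductases such as Cybrd1. When iron is scarce, iron regulatory proteins bind hairpins called iron-responsive elements in the 3′ untranslated region of Tfrc mRNA and protect it from decay.

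Stretches of Tfrc are shown first because they bear on what its count can and cannot tell. The knockout allele removes exons 3 and 4, on the plus strand of chromosome 16 in the mm9 build of the tables, at chr16:32614652-32614853 and chr16:32615279-32615480. Both are coding exons of 202 bases, and the sequences below were read from the GENCODE vM1 transcript and matched the genome of that build. Capitals mark the codons of the most hydrophobic stretch of 21 residues in the reading frame, found with the Kyte-Doolittle scale, which crosses the junction of both exons.
Tfrc exon 3: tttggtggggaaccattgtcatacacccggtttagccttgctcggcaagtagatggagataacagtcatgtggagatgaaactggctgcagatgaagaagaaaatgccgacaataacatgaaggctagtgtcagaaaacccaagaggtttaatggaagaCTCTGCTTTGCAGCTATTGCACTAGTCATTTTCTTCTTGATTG
Tfrc exon 4: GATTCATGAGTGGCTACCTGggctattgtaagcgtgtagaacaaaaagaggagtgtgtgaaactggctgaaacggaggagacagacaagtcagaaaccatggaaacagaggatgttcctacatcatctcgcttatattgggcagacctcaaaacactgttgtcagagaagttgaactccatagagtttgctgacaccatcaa

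The 404 bases of these exons are 8.26% of the 4890-base transcript, and 4486 bases of it lie outside them. A transcript that joins exon 2 to exon 5 leaves the reading frame, since 404 is not a multiple of 3, and meets its first stop after 22 codons in place of 763. A count over the whole gene can therefore still hold reads from a transcript without these exons, and it does not check the knockout. The stability of such a transcript was not tested. Reads within the exons were not analysed here.

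Iron-responsive hairpins found in Tfrc by the rule below are shown because such hairpins are a switch by which the iron state of a cell sets the amount of this mRNA. Hairpins with another loop or stem would be missed by this rule, so the set may be incomplete. A search of the GENCODE vM1 coding transcripts for a C, any 5 bases, CAGTG, then A, C or T, then 5 bases that pair with the first 5 (G-T pairs allowed, transcript strand only) found 4 matches in Tfrc, all in the 3′ untranslated region. With 4 of 5 pairs required, 1 site in Slc11a2 was also found, in the 3′ untranslated region of the transcripts Slc11a2-002 and Slc11a2-201. The 6 bases of each loop are in capitals.
Tfrc, chr16:32631305-32631334, plus strand: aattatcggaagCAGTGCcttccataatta
Tfrc, chr16:32631684-32631713, plus strand: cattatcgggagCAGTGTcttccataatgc
Tfrc, chr16:32631749-32631778, plus strand: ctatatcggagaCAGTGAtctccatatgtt
Tfrc, chr16:32631796-32631825, plus strand: aattatcgggaaCAGTGTttcccataattt
Slc11a2, chr15:100225583-100225612, minus strand: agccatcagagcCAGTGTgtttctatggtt

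Transcripts of 0.902% of the 22611 genes searched held a match with all 5 pairs, and 7.17% held 1 with at least 4. The other 8 members held none under either rule, which says only that these letters were not in their annotated coding transcripts. The gene count of Slc11a2 adds up transcripts with and without this site and cannot separate them.

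Before the values, some facts about the libraries bear on them. Total counts ran from 16591156 to 22898008 per library. Control replicates 1 and 2 resembled each other far more (chi-square of 10.6 per gene) than either resembled Control replicate 3 (79.8 and 84.1), which held lower counts of tubule markers, so the results below are also given without it where it matters. Knockout replicates 1 and 3 were at 37.9 per gene, while knockout replicate 2 was at 102.9 from knockout replicate 1 and at 63.0 from knockout replicate 3. For scale, knockout replicate 1 was at 105.6 and 101 from Control replicates 1 and 2. No pair of libraries agreed within counting noise. Markers of the labelled tissue were present, and none of the proximal tubule, thick ascending limb, distal tubule, collecting duct or podocyte genes listed was at 0 in all libraries. In whole tissue, fewer cells of a type and less RNA per cell cannot be told apart, and this holds for every change below.

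In TfR1 knockout kidneys the transcript of transferrin itself rose most among the members, Slc11a1 rose, and Slc39a8 fell. The receptor Tfrc, the endosomal exporter Slc11a2, the ferrireductases and the other 3 members did not pass the test. Of 10 members tested, 2 were higher (Trf and Slc11a1) at an adjusted p under 0.05 by DESeq2, beside 7.74% of all 16509 genes tested. In the other direction 1 was lower (Slc39a8), beside 7.18% of all genes. The members' median log2 fold change was 0.22, and that of all genes tested was 0.0071. With edgeR's quasi-likelihood test 1 member was higher (Trf) and 1 was lower (Slc39a8), while Slc11a1 did not pass.

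**Figure D1:**
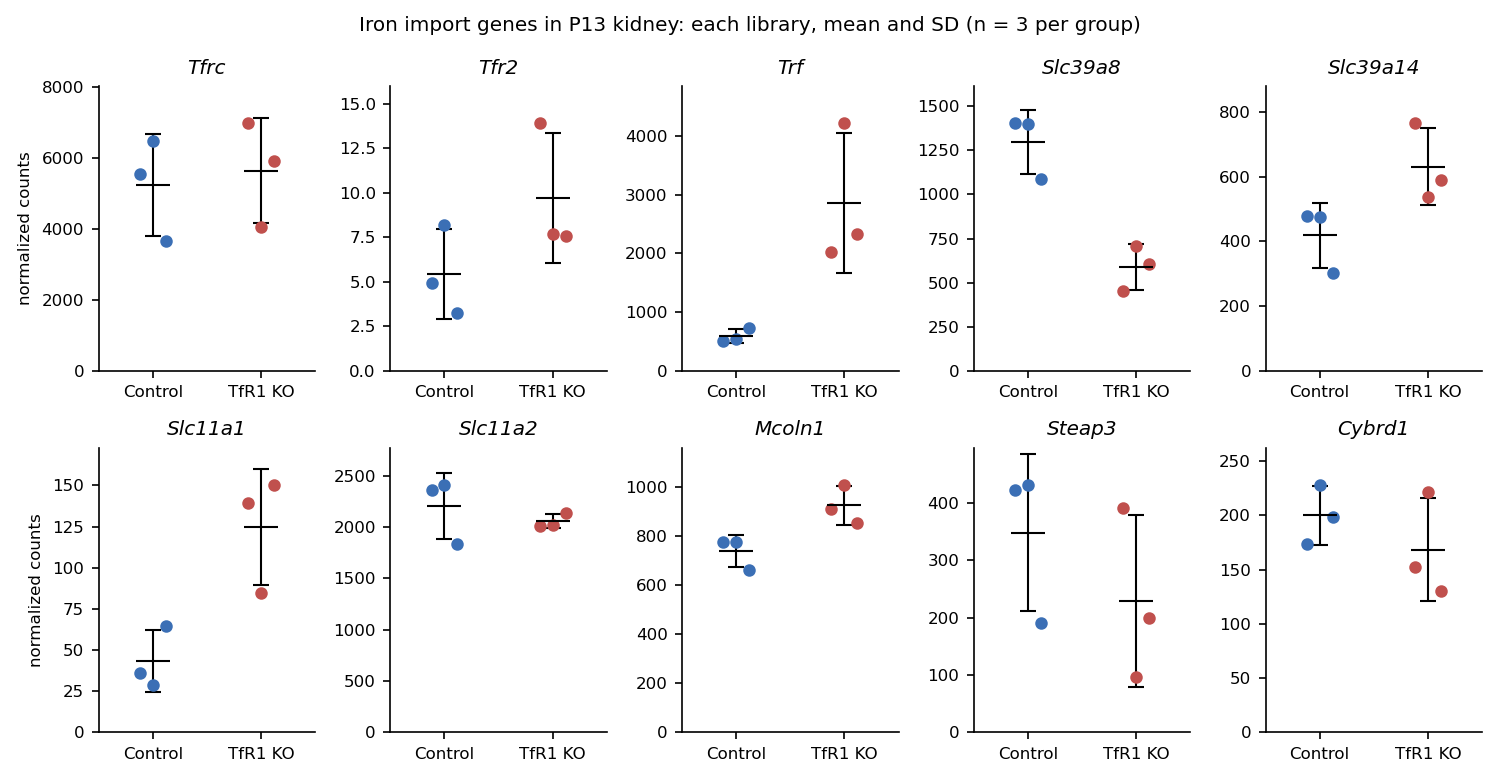
Normalized counts (counts divided by the DESeq2 size factor) of each member on its own linear axis from 0, with 1 point per library, and a bar for the mean with the SD of the 3 libraries. Trf and Slc11a1 of every knockout library lie above every Control library, Slc39a8 of every knockout library lies below, and the groups overlap for Tfrc, Tfr2, Slc11a2, Steap3 and Cybrd1.

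Trf encodes transferrin, the ligand of the uptake cycle, which liver makes in bulk and other tissues in small amounts. Its gene lies on the minus strand at chr9:103092538-103132774, where 2 gene records of the annotation carry the symbol. Control libraries held 509, 538 and 724 normalized counts and knockout libraries 2018, 4214 and 2324. The lowest knockout library stood above the highest Control library, and knockout replicate 2 held the highest count of all. This was a log2 fold change of 2.27 (SE 0.32, 4.83-fold, DESeq2 adjusted p 1.45e-10), and edgeR gave an adjusted p of 0.0099. Without Control replicate 3 it was 2.44, and over all libraries left out in turn it ranged from 1.88 to 2.47 and passed each time.

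Several hepatocyte markers were also higher. Of 9 listed, 8 were tested, 5 were higher (Alb, Apoa1, Ttr, Cps1 and Tat) and none was lower. None was at 0 in all libraries. By edgeR 2 were higher (Alb and Tat). With 1 library left out in turn, Alb, Apoa1 and Tat passed in every fit, Ttr in 3 of 6 and Cps1 in 1. The groups overlapped for Ttr and Cps1. Apoa2 was at a log2 fold change of -0.78 and did not pass (DESeq2 adjusted p 0.231). The list's summed normalized counts ran from 3358 to 5046 in Control and from 4254 to 16100 in knockout kidneys. That sum was 8965 in knockout replicate 1 and 4254 in knockout replicate 3, while Trf was 2018 and 2324. Transthyretin (Ttr), a plasma carrier protein, supplied most of that sum, with 3164, 3848 and 4815 normalized counts in Control and 8254, 15134 and 4038 in knockout libraries. It was above Trf in all 6 libraries and, like Trf, highest in knockout replicate 2. Albumin (Alb), among the most abundant transcripts of liver, was at 28, 15.5 and 14 normalized counts in Control and 433, 371 and 67.2 in knockout libraries. Alb was below Trf in all 6 libraries and was lowest of its group in knockout replicate 3. The part of liver-type transcripts in the change of Trf was not tested.

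Tfrc encodes transferrin receptor 1, the high affinity door for transferrin and the gene that was floxed. It lies at chr16:32609006-32632880. Control libraries held 5534, 6485 and 3667 normalized counts and knockout libraries 6976, 4045 and 5898. The groups overlapped across almost their whole range, and Control replicate 3 was the lowest of all. The log2 fold change was 0.11 (95% interval -0.46 to 0.68, DESeq2 adjusted p 0.853), so these counts leave room for changes of either sign within that interval. It was -0.095 without Control replicate 3 and -0.072 without knockout replicate 1.

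Dividing cells and red cell precursors carry much of this receptor, so their markers stand beside it. Of 12 markers of proliferating cells, 8 were lower and none higher by DESeq2 (5 lower by edgeR), beside 7.18% lower over all genes tested. With 1 library left out in turn, Aurkb passed in 4 of 6 fits, Bub1 in 3 and Mcm5 in 2. The sums of this list were 12025 to 13948 in Control and 4434 to 8307 in knockout kidneys, and no gene of it was at 0. Of 11 erythroid markers in the tables, 6 were tested and 1 was lower (Slc4a1), which collecting duct cells also express. The globin genes Hba-a1, Hba-a2, Hbb-b1 and Hbb-b2 were listed at 0 in all libraries. They are near-identical copies whose shared reads the authors' counting may have left out, so these zeros are uncertain and do not show absence. Erythroid sums without them ran from 3088 to 6425 in Control and from 1757 to 6290 in knockout kidneys. Their part in the Tfrc count was not tested.

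Tfr2 encodes transferrin receptor 2, an iron sensor of hepatocytes and erythroid cells. At chr5:138011079-138028709 it was near the floor of detection, with raw counts of 6, 9 and 3 in Control and 14, 6 and 8 in knockout libraries. Normalized counts were 4.95, 8.18 and 3.23 against 13.9, 7.68 and 7.57, and the groups overlapped. The log2 fold change of 0.83 had a 95% interval from -0.80 to 2.46 (DESeq2 adjusted p 0.555), so a change of either sign was not detectable at this depth.

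The ratio of ligand to receptor transcript, in counts per kb of exon, was 0.13, 0.12 and 0.29 in Control and 0.42, 1.52 and 0.58 in knockout libraries for Trf over Tfrc. The groups did not overlap. In knockout replicate 2 alone the Trf level per kb stood above that of Tfrc.

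Slc39a8 encodes ZIP8, a surface carrier of zinc, manganese, cadmium and ferrous iron. The gene lies at chr3:135488243-135551536. Control libraries held 1404, 1399 and 1087 normalized counts and knockout libraries 451, 710 and 604. Every knockout library was below every Control library. This gave a log2 fold change of -1.14 (SE 0.24, 2.21-fold lower, DESeq2 adjusted p 4.36e-05), and edgeR gave an adjusted p of 0.0204. It was -1.25 without Control replicate 3, and it passed with each of the 6 libraries left out.

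Tubule marker lists went different ways beside Slc39a8. All 7 markers of the thick ascending limb were lower (6 by edgeR), with sums of 53332 to 119820 in Control and 14691 to 27708 in knockout kidneys. Of 12 proximal tubule markers 4 were lower (Lrp2, Slc5a2, Kap and Aqp1) and 1 was higher (Slc22a6), while 7 did not pass (edgeR 2 lower and 1 higher). Their sums were 121828 to 309417 in Control and 63029 to 99664 in knockout kidneys. Kap alone held 134550, 158797 and 46135 in Control and 11842, 9917 and 5892 in knockout libraries. Without Kap the sums of the groups overlap. Of 4 markers of the distal convoluted tubule 3 were lower, with sums of 18844 to 36496 in Control and 8234 to 14534 in knockout kidneys. Of 7 listed collecting duct markers, from a lineage that this Cre does not target, 4 were higher and none lower (edgeR 2 higher). Their sums were 10043 to 20047 in Control and 37742 to 65253 in knockout kidneys. Aqp2 alone held 5747, 5581 and 2409 in Control and 17805, 50719 and 23564 in knockout libraries. Not all collecting duct genes rose. Slc26a4 of intercalated cells, not on this list, was lower (log2 fold change -1.18, DESeq2 adjusted p 2.46e-05), as was Slc4a1 (-1.75, 0.000249). No gene of these 4 lists was at 0. In Control replicate 3 the thick ascending limb sum was 53332 against 106708 and 119820 in its group, while Slc39a8 was 1087 against 1404 and 1399. The part of these tubule transcripts in the change of Slc39a8 was not tested.

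Among 12113 other genes whose normalized counts averaged 100 or more, those whose profile over the 6 libraries lay nearest to Slc39a8 were Lhx1, Slc26a4 and Ell3. The root mean square difference of their centred log2 values from those of Slc39a8 was 0.078, 0.124 and 0.144, and the median over all genes compared was 0.67. Slc26a4, the anion exchanger pendrin of collecting duct intercalated cells, held 1609, 1627 and 1114 normalized counts in Control and 568, 770 and 585 in knockout libraries. Lhx1 encodes a transcription factor of early nephrons and held 181, 186 and 131 against 62.6, 97.2 and 73.8. Nearest to Tfrc were C1qbp, Tmem178 and Atad3a, at 0.063, 0.076 and 0.079 with a median of 0.44. C1qbp and Atad3a encode mitochondrial proteins. These genes were chosen for the likeness, and no test was made of it.

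Slc39a14 encodes ZIP14, the close relative that carries non-transferrin iron into liver and other cells. It lies at chr14:70703274-70751232 on the minus strand. Control libraries held 479, 474 and 302 normalized counts and knockout libraries 765, 537 and 590. The groups did not overlap, but the difference did not pass the test (log2 fold change 0.59, SE 0.26, DESeq2 adjusted p 0.118, edgeR 0.172). Without Control replicate 3 the log2 fold change was 0.40.

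The balance between both ZIP carriers was read within each library, where the size factor cancels. In counts per kb of exon, Slc39a8 over Slc39a14 was 4.04, 4.06 and 4.95 in Control and 0.81, 1.82 and 1.41 in knockout libraries. ZIP8 transcript was in excess in all Control libraries and in knockout replicates 2 and 3, and below ZIP14 in knockout replicate 1. The mean ratio was 4.35 ± 0.52 (SD, n = 3) in Control and 1.35 ± 0.51 (SD, n = 3) in knockout kidneys. The ratio was chosen after its values were seen and was not tested.

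Slc11a1 encodes NRAMP1, a divalent metal carrier of phagosomes in macrophages and neutrophils. At chr1:74421777-74432636 it was one of the weakest members, with 36.3, 29.1 and 64.6 normalized counts in Control and 139, 84.4 and 150 in knockout libraries. The groups did not overlap, and Control replicate 3 stood nearest to the knockout range. The log2 fold change was 1.54 (SE 0.42, 2.90-fold, DESeq2 adjusted p 0.00351). The call was not stable, since edgeR gave an adjusted p of 0.0672, and DESeq2 gave 0.0604 without Control replicate 1, 0.0586 without Control replicate 2 and 0.0708 without knockout replicate 3. Without Control replicate 3 the log2 fold change was 1.93 and passed.

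Phagocytes are the known site of Slc11a1, so their markers stand beside it. Of 14 macrophage markers 8 were higher (Cd68, Itgam, Lyz2, C1qa, C1qb, C1qc, Cd14 and Fcgr1, with 6 by edgeR) and none was lower or at 0. Their summed normalized counts were 3847, 3945 and 6000 in Control and 11712, 9743 and 10084 in knockout libraries. Adgre1, Csf1r, Mrc1, Aif1, Cx3cr1 and Mertk did not pass (DESeq2 adjusted p 0.146 to 0.979). In knockout replicate 2, Aif1 (7.68 normalized counts) and Cx3cr1 (32.0) were below every Control library, so the list did not rise as a whole. Of 11 neutrophil markers 9 were tested and 4 were higher by DESeq2 (S100a8, S100a9, Retnlg and Mmp8) and 0 by edgeR. The groups overlapped for these 4 genes and for the neutrophil sums, which were 181 to 482 in Control and 398 to 1226 in knockout kidneys. With 1 library left out in turn, S100a8, S100a9 and Retnlg each passed in 2 of 6 fits and Mmp8 in 4. The part of phagocytes in the change of Slc11a1 was not tested.

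**Figure D2:**
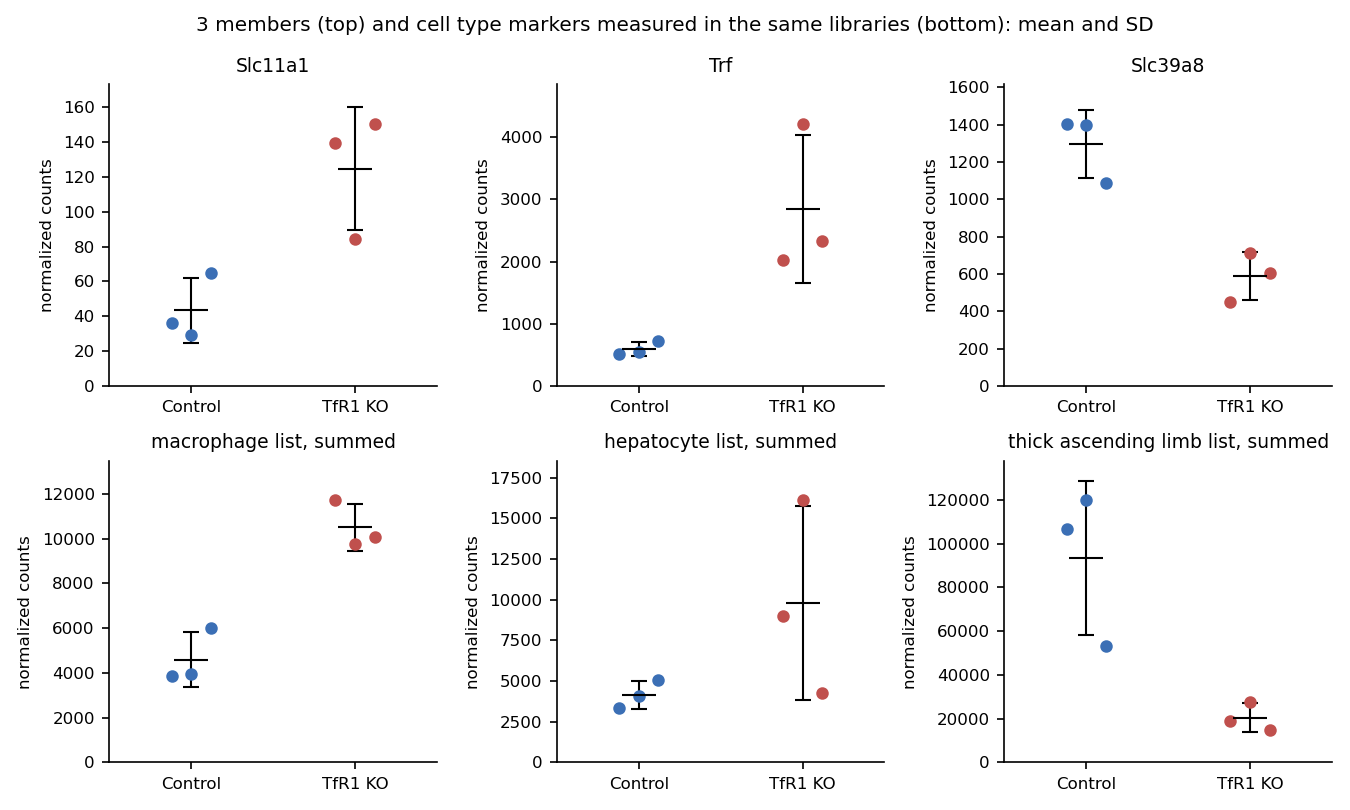
Normalized counts per library (points) with the group mean and SD for Slc11a1, Trf and Slc39a8 in the top row, and below each a marker measured in the same libraries: the summed macrophage list (14 genes), the summed hepatocyte list (9 genes), and the summed thick ascending limb list (7 genes). All axes are linear from 0, Slc11a1 and the macrophage sum are both higher in each knockout library, Trf and the hepatocyte sum both peak in knockout replicate 2 (4214 and 16100) while the hepatocyte groups overlap, and Slc39a8 and the limb sum are both lower.

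Slc11a2 encodes DMT1, which moves ferrous iron out of endosomes and, in some tissues, across the cell surface. The gene lies at chr15:100218329-100255503 on the minus strand. Control libraries held 2362, 2411 and 1832 normalized counts and knockout libraries 2014, 2015 and 2132. All 3 knockout values fell within the Control range. The log2 fold change was -0.10 (95% interval -0.44 to 0.24, DESeq2 adjusted p 0.760), the narrowest result but for Mcoln1. In counts per kb, Slc11a2 over its relative Slc11a1 was 37.9, 48.2 and 16.5 in Control and 8.42, 13.9 and 8.25 in knockout libraries, while Slc11a2 itself did not pass.

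Mcoln1 encodes TRPML1, a cation channel through which iron can leave late endosomes and lysosomes. At chr8:3500457-3515232 it held 774, 776 and 662 normalized counts in Control and 911, 1009 and 854 in knockout libraries. The groups did not overlap, yet the shift was small (log2 fold change 0.33, SE 0.17) and did not pass (DESeq2 adjusted p 0.187, edgeR 0.199).

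Steap3 encodes the ferrireductase of transferrin endosomes, best known from red cell precursors. At chr1:122087334-122169282 on the minus strand it varied widely within both groups, with 422, 432 and 191 normalized counts in Control and 392, 96.0 and 200 in knockout libraries. Control replicate 3 sat with the lower knockout libraries, and knockout replicate 1 sat with the higher Control libraries. The log2 fold change of -0.60 (95% interval -1.60 to 0.39) did not pass (DESeq2 adjusted p 0.468), but without knockout replicate 1 it was -1.23 with an adjusted p of 0.0452. It did not pass without Control replicate 3 (-0.90, DESeq2 adjusted p 0.260) or without knockout replicate 2 (-0.23, 0.836).

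Cybrd1 encodes DCYTB, the ascorbate-dependent reductase of the gut brush border. At chr2:70955980-70980983 it held 173, 228 and 198 normalized counts in Control and 152, 221 and 131 in knockout libraries. The groups overlapped, and the log2 fold change was -0.25 (95% interval -0.81 to 0.30, DESeq2 adjusted p 0.606).

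**Figure D3:**
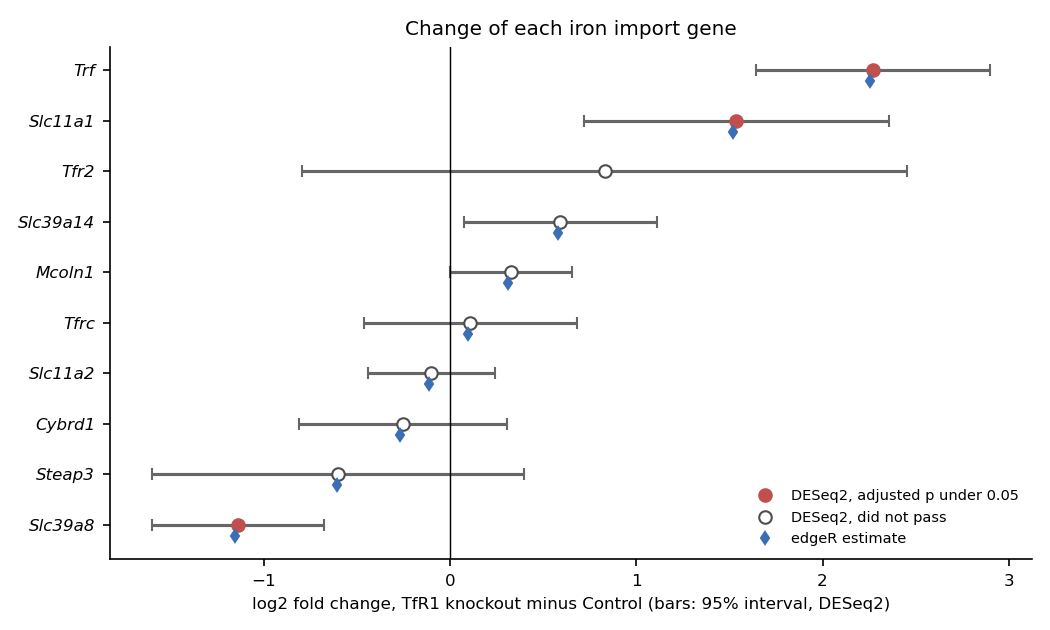
Log2 fold change of each member, TfR1 knockout minus Control, from DESeq2 with its 95% interval (not adjusted for the number of genes), and the edgeR estimate as a diamond (Tfr2 was too low for that fit). Filled circles passed an adjusted p under 0.05, which were Trf at 2.27, Slc11a1 at 1.54 and Slc39a8 at -1.14.

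Values of the groups did not overlap for 5 of the 10 members (Trf, Slc39a8, Slc39a14, Slc11a1 and Mcoln1), beside 33.7% of all genes tested. With 3 against 3 libraries, an exact permutation test of any single member could not give a two-sided p below 0.1.

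The order of the members' levels, in normalized counts per kb of exon, shows which doors had the most transcript. In Control kidneys Tfrc was highest at 845 ± 232 (SD, n = 3), followed by Slc11a2 at 347 ± 50.6, Mcoln1 at 209 ± 18.6, Slc39a8 at 169 ± 23.7 and Trf at 140 ± 27.7. Below them came Steap3 at 60.9 ± 23.9, Slc39a14 at 39.7 ± 9.54, Cybrd1 at 37.4 ± 5.16, Slc11a1 at 11.7 ± 5.08 and Tfr2 at 1.86 ± 0.86. Neighbours whose library ranges overlapped were Slc39a8 with Trf, Steap3 with Slc39a14, and Slc39a14 with Cybrd1.

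In knockout kidneys Trf was at rank 2 with 674 ± 281, and its range overlapped that of Tfrc at 912 ± 240. Slc39a8 was at rank 5 with 76.8 ± 17.0, and its range overlapped that of Slc39a14 at 59.8 ± 11.3. Slc11a2 was at 323 ± 10.7, Mcoln1 at 263 ± 22.3, Steap3 at 40.1 ± 26.3, Slc11a1 at 33.7 ± 9.55, Cybrd1 at 31.5 ± 8.88 and Tfr2 at 3.32 ± 1.24. From Slc39a8 down to Cybrd1 each neighbour overlapped the next, so their order is not settled by these libraries.

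**Figure D4:**
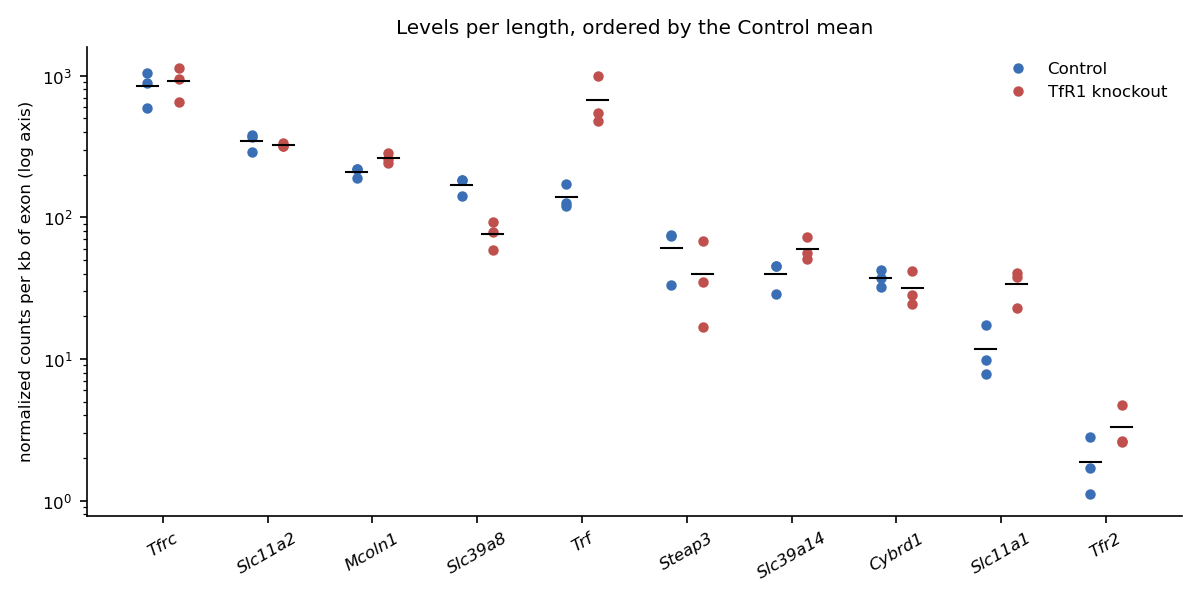
Normalized counts per kb of exon on a log axis, with 1 point per library and a line at the group mean, ordered by the Control mean from Tfrc at 845 to Tfr2 at 1.86. Trf is at rank 5 in Control and rank 2 in knockout libraries, and Slc39a8 drops towards Slc39a14.

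The next genes build the machinery that carries the receptor into the cell and back. Of 20 genes of the transferrin receptor cycle, all tested, 2 were higher and 0 lower by DESeq2 at an adjusted p under 0.05, with a median log2 fold change of 0.16, a share near the 7.74% higher and 7.18% lower of all genes tested. They were Dnm2, the dynamin that pinches off coated vesicles (0.48, adjusted p 0.0104), and Ap2b1, a subunit of the clathrin adaptor (0.36, adjusted p 0.0330). Neither passed by edgeR (0.0709 and 0.135), Ap2b1 was lost with each of the 6 libraries left out (0.0746 to 0.296), and Dnm2 was lost with all but Control replicate 3 or knockout replicate 2 left out (0.0539 to 0.149). Clathrin heavy chain Cltc held 9724 to 10811 normalized counts in Control and 11559 to 14118 in knockout libraries and did not pass (0.228), and Hfe, a partner of the receptor, was at 0.14 (adjusted p 0.694).

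Among 6 relatives of the ferrireductases, all tested, 2 were higher and 0 lower (7.74% and 7.18% over all genes), with a median of 0.49. Steap1, which lacks a cofactor domain that its relatives have, held 158, 107 and 102 normalized counts in Control and 345, 221 and 274 in knockout libraries (log2 fold change 1.19, DESeq2 adjusted p 0.00105, edgeR 0.0515). Steap4, a metalloreductase known from inflammation and fat tissue, held 161, 149 and 314 against 320, 583 and 429 (1.10, adjusted p 0.0262, edgeR 0.113). Steap1 passed with each library left out. Steap4 passed without Control replicate 3 or knockout replicate 1 and was lost without any of the other 4 (0.101 to 0.185). Steap3 and Cybrd1 themselves did not pass, as given above, and the difference between relatives was not tested.

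Other routes let in iron and heme outside the members. Of their 18 genes in the tables, all tested, 2 were higher, 3 were lower and 13 did not pass (edgeR 1 higher and 1 lower), beside 7.74% higher and 7.18% lower over all genes, with a median of -0.15. Lcn2, which binds iron-laden siderophores and is a known marker of tubule injury, rose from 284, 284 and 465 normalized counts in Control to 2102, 3459.5 and 1817 in knockout libraries (log2 fold change 2.84, DESeq2 adjusted p 5.05e-16, edgeR 0.00505). Cd163, the macrophage receptor for hemoglobin with haptoglobin, held 76.7, 43.6 and 187 against 253, 532 and 508 (2.07, adjusted p 0.00116, edgeR 0.0686).

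The 3 lower genes of these routes were Lrp2, Slc22a17 and Mcoln2. Lrp2 encodes megalin, the endocytic receptor of the proximal tubule that retrieves filtered proteins, transferrin among them with its partner cubilin. It fell from 25256, 26255 and 12909 normalized counts to 10851, 6311 and 5937 (-1.48, DESeq2 adjusted p 0.00046, edgeR 0.0537). Mcoln2, a relative of Mcoln1 with a mean under 100, was at 122, 133 and 65.7 against 15.9, 7.68 and 8.51 (-3.31, DESeq2 adjusted p 2.68e-09, edgeR 0.0108). Slc22a17, a receptor proposed for lipocalin 2, was at 1704, 1771 and 1132 against 1091, 688 and 909 (-0.78, adjusted p 0.0287, edgeR 0.0902), and it was lost without Control replicate 1 (0.195), Control replicate 2 (0.201), knockout replicate 2 (0.123) or knockout replicate 3 (0.119).

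Of 10 regulators of Tfrc mRNA, all tested, 1 was higher and 0 lower, near the 7.74% and 7.18% of all genes, with a median of 0.26. This was Zc3h12a, which encodes Regnase-1, an endonuclease known to cut the Tfrc 3′ untranslated region. It held 88.2, 107 and 95.8 normalized counts in Control and 191, 177 and 167 in knockout libraries (log2 fold change 0.88, DESeq2 adjusted p 0.00213, edgeR 0.0580), and it was lost without Control replicate 1 (0.0852). The iron regulatory proteins that bind the hairpins shown above did not pass: Aco1 (IRP1) was at 0.14 (adjusted p 0.785) and Ireb2 (IRP2) at 0.22 (0.567). Fbxl5, which marks IRP2 for degradation when iron is ample, was at -0.11 (0.751).

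**Figure D5:**
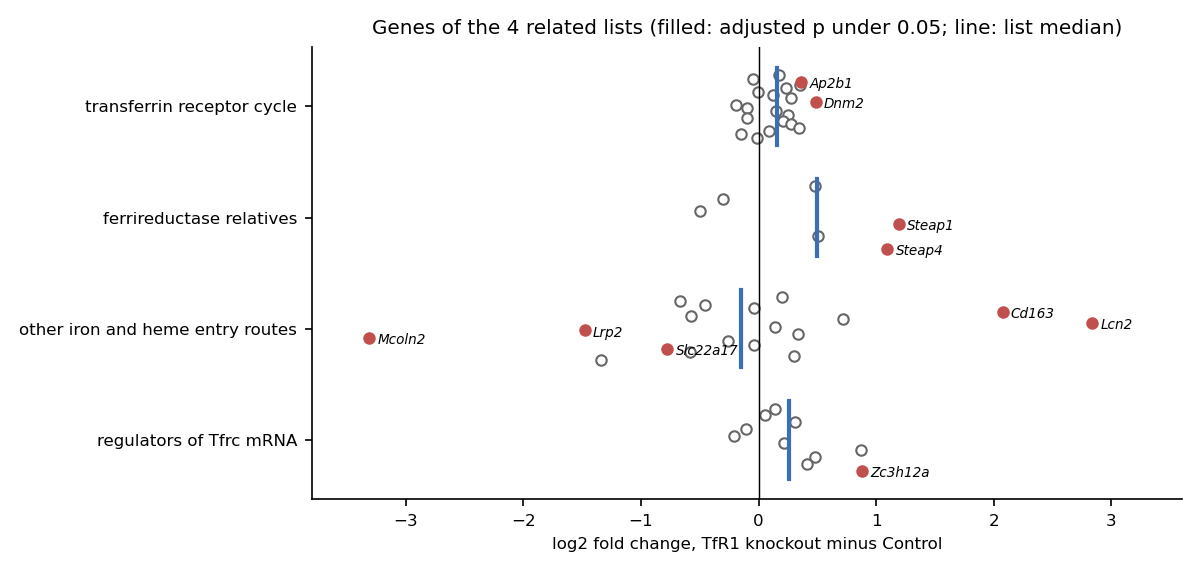
Log2 fold change (TfR1 knockout minus Control, DESeq2) of each gene in the 4 related lists, with filled points for an adjusted p under 0.05 and a vertical line at the list's median. The cycle genes lie within 0.50 of 0, while the entry routes spread from Mcoln2 at -3.31 to Lcn2 at 2.84.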

How the data were processed

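The 6 kidney libraries (TruSeq, poly-A RNA) had been processed with CASAVA 1.8.2, Trimmomatic, TopHat2 2.0.11 (mm9) and HTSeq. The authors deposited raw read counts per gene symbol, not normalized. The version, annotation and strand setting of HTSeq are not given in the sources used here. Both count tables were joined by symbol, and each library's group was taken from its labels.

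DESeq2 1.42.0 (R 4.3.3) was fitted to all 24422 genes with group as the only term. Normalized counts are counts divided by its size factor. Adjusted p is Benjamini-Hochberg over the 16509 genes left by independent filtering, and 0.05 was the threshold. Levels per kb used exon unions of GENCODE vM1, the files' build (mm9, NCBIM37). Intervals (95%) are from the SE and cover these libraries' spread, in which differences between animals and technical ones cannot be told apart. Alternatives included edgeR 4.0.16, limma 3.58.1 (voom), other size factors and filters, a replicate block and leaving out each library.

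The members and lists were chosen with earlier results of these data known. Named list genes passed the threshold, at most 5 per list by fold, where normalized counts averaged 100 or more, plus genes that a small count needed. Those without a call (Cltc, Hfe, Aco1, Ireb2, Fbxl5), the ratios and the members' order were named after their values were seen. Flvcr2 and Ahsp of the lists were not matched.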

Additional observations from a re-analysis of the deposited data

How the results depend on the processing

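Of 157 alternative values of the members' log2 fold changes, 149 kept their direction and side of the threshold. Tfrc reversed to -0.095 without Control replicate 3 and to -0.072 without TfR1 knockout replicate 1 and reached 0.30 without TfR1 knockout replicate 2, Slc11a1 no longer passed in 5 cases (limma-voom gave an adjusted p of 0.0563, the others stand above) and Steap3 passed in 1. Over 16 alternatives each, adjusted p ran from 1.20e-14 to 0.0099 for Trf, from 3.89e-08 to 0.0204 for Slc39a8 and from 0.000134 to 0.0708 for Slc11a1. Tfr2 was too low for edgeR, limma-voom and the filter on a mean raw count of 10. Members higher numbered 1 by edgeR and by limma-voom and 1 to 2 with a library left out. Members lower ranged from 1 to 2.

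Over all genes DESeq2 called 1277 higher and 1186 lower, edgeR 493 and 428, limma-voom 485 and 456, and a call that also needed a 2-fold change 728 and 736. With a library left out, 664 to 1531 were higher and 575 to 1674 lower. Total-count size factors moved the median of all genes by -0.10 on the log2 scale and the share of calls that were higher from 51.8% to 41.4%, and kept the 3 members' calls. By edgeR the genes higher were 0 for the receptor cycle, 0 for the ferrireductase relatives, 1 for the entry routes (1 lower) and 0 for the regulators. With a library left out they ranged from 0 to 1, 1 to 2, 2 to 2 (2 to 5 lower) and 0 to 2. The cause of these shifts was not tested.

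Libraries share replicate numbers, and deviations of same-numbered libraries from their group means correlated at -0.038, 0.055 and 0.090. These values show no sign of pairing by number but cannot exclude it. The study names littermate controls, but the labels give no litter, and replicate numbers need not follow litters. Pairing by litter was therefore not tested. With the replicate block 1085 genes were higher and 1087 lower, and no member's call changed (Trf 2.21, Slc39a8 -1.15, Slc11a1 1.56). The order of levels kept 20 of 20 ranks with TMM-scaled values and 14 of 20 with the longest coding transcript as length, an alternative chosen after seeing the data. With 3 libraries a group, Tfr2 and Slc11a1 are limited by their low counts.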
